A study of Mus musculus with 2 samples.

Results

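The let-7 family of microRNAs was followed in newborn mouse intestine through 10 genes, out of 1973 miRNA genes counted. These were Mirlet7a-1, Mirlet7a-2, Mirlet7b, Mirlet7c-1, Mirlet7c-2, Mirlet7d, Mirlet7f-2, Mirlet7g, Mirlet7i and Mir98, picked by gene symbol and not by any measured value. Earlier results of these data were known when they were picked. All 10 had at least 10 counts in both libraries, as did 314 of the 1973. Mirlet7e and Mirlet7f-1, the other mouse genes of these names, were not analysed here. The samples were intestine, with no segment named, from B6NCrl pups aged 0 days after birth. The labels call the animals pup 1 and pup 2 of 1 pregnant female, enter both under the same donor, and record no sex and no treatment. There was 1 microRNA sequencing library per pup, from RNA with a stated size range below 30. With 1 group and 2 libraries, levels could be described and the littermates compared, but no condition could be tested.

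Let-7 miRNAs are cut from hairpin transcripts by the nuclease Drosha and then by Dicer, and the strand from the 5′ side of the hairpin (5p) is usually the one loaded into Argonaute. Bases 2 to 8 of that strand, the seed, pair with target mRNAs, so miRNAs with one seed share many targets. The family is known for rising as embryonic tissue matures. It represses growth genes such as Hmga2, Igf2bp and Myc genes, and Lin28a and Lin28b, whose proteins in turn bind let-7 precursors and block their maturation.

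The mature 5p sequences show what the 10 genes have in common and where they differ. RefSeq hairpins on GRCm38.p6 matched all 10, and the 5p strands come to 8 distinct sequences of 22 bases, printed 5′ to 3′ with the seed in capitals. The 5p strand of Mirlet7a-2 was found by searching its hairpin for the let-7a sequence.
let-7g (Mirlet7g): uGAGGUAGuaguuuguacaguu
let-7i (Mirlet7i): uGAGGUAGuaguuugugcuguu
let-7d (Mirlet7d): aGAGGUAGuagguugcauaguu
miR-98 (Mir98): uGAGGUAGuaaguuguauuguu
let-7b (Mirlet7b): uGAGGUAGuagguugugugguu
let-7f (Mirlet7f-2): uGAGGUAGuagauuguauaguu
let-7a (Mirlet7a-1 and Mirlet7a-2): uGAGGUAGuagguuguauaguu
let-7c (Mirlet7c-1 and Mirlet7c-2): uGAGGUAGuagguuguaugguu

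All 8 carried the same seed, and 15 of 22 positions held the same base in every sequence. Past the seed, differences lay between positions 11 and 19, counted from 1 at the 5′ end. Against let-7a, let-7c differed by A19G, let-7f by G12A and let-7b by A17G and A19G. Let-7d differed by U1A and U16C, miR-98 by G11A and A19U, and let-7g by G12U and U18C. Let-7i was the most distant, with G12U, A17G, U18C and A19U. Some of these miRNAs are therefore 1 base apart, let-7b from let-7c and let-7f from let-7a among them. Let-7d, let-7g, let-7i and miR-98 are at least 2 bases from every other sequence above.

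The libraries held 6375694 and 8373497 reads, of which 3567658 and 4683939 fell on the annotated strand of miRNA genes. Levels below are CPM, counts per 1000000 of those counts, and ± is the SD over the 2 pups. Reads that mapped to several places made up 30.3% of reads in pup 1 and 29.8% in pup 2 and were counted for no gene. The labelled tissue was checked by marker miRNAs: 6 of 6 genes of gut epithelium were detected and took 24.4% of counts in pup 1 and 28.9% in pup 2. The 2 smooth muscle genes took 18.11% and 15.01%, endothelial Mir126a 5.46% and 4.98%, and liver Mir122 0.00289% and 0.00124%. Leukocyte genes took 0.0460% on average, striated muscle genes 0.0351% and erythroid genes 0.0123%. Of 5 neural genes counted, 0 had at least 10 counts in both libraries. Those are numbered copies of Mir124a and Mir9. Reads that fit several copies were counted for no gene, so these counts do not show whether neural RNA was present. Shares of other lists with numbered copies, striated muscle among them, can be too low for the same reason.

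Let-7 genes took 9.06% of miRNA counts in pup 1 and 8.41% in pup 2. Exact Clopper-Pearson 95% intervals were 9.03 to 9.09% and 8.38 to 8.43%. Like the floors below, they cover counting error only. PCR copies were not marked by molecular identifiers, so the reads counted may not be independent. Mirlet7g and Mirlet7i made up 78.5% ± 0.752 of the family's counts. The other 8 genes shared 1.88% ± 0.0341 of all miRNA counts, and this remainder was almost equal in the pups (1.90% and 1.86%). In bulk tissue a lower level can mean fewer cells of a type or less RNA per cell, and these cannot be told apart.

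Mirlet7g, in an intron of the protein-coding gene Wdr82, led the family in counted reads. It had 153052 counts in pup 1 and 193161 in pup 2, or 42899.9 and 41239 CPM, and was the 4th highest miRNA gene in each library. Mirlet7i, which overlaps an exon of the transcribed pseudogene D630033A02Rik, had 102291 and 113652 counts, or 28671.8 and 24264.2 CPM. Mirlet7g exceeded Mirlet7i in both animals, with a log2 ratio of 0.58 in pup 1 and 0.77 in pup 2. Of the sequences above, let-7g is the one nearest to let-7i, with 2 mismatches.

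Mirlet7d, which like Mirlet7a-1 overlaps an exon of the long noncoding RNA 6720427I07Rik, had 31075 and 39572 counts, or 8710.2 and 8448.44 CPM. Mir98 had 17594 and 21755 counts, or 4931.53 and 4644.6 CPM. Mirlet7b had 10434 and 13367 counts, or 2924.61 and 2853.79 CPM. These 3 were each lower in CPM in pup 2, by less than the gap to the next member. Mirlet7f-2, the neighbour of Mir98 in an intron of Huwe1, had 7966 and 10834 counts, or 2232.84 and 2313.01 CPM.

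The remaining 4 genes lay far lower. Mirlet7a-1 had 279 and 462 counts (78.2 and 98.6 CPM) and Mirlet7a-2 had 249 and 423 counts (69.8 and 90.3 CPM). Mirlet7c-1 had 186 and 266 counts (52.1 and 56.8 CPM) and Mirlet7c-2 had 145 and 241 counts (40.6 and 51.5 CPM). Together these 4 held 0.310% ± 0.0621 of the family's counts. The step from Mirlet7f-2 down to Mirlet7a-1 was 25.9-fold on average (log2 ratio 4.84 in pup 1 and 4.55 in pup 2), whereas the other steps between neighbours in the order of levels were 1.11- to 3.07-fold.

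The order of the 10 genes by counted reads was the same in both animals, with all 10 ranks equal. Of 9 pairs of neighbours in that order, 8 had CPM ranges over the pups that did not overlap. The exception was Mirlet7a-1 and Mirlet7a-2, which make the same 5p miRNA. Their ranges overlapped, although Mirlet7a-1 was the higher within each library. The coefficient of variation between pups was 1.73% for Mirlet7b, 2.16% for Mirlet7d, 2.49% for Mirlet7f-2, 2.79% for Mirlet7g, 4.24% for Mir98 and 6.04% for Mirlet7c-1. It was 11.8% for Mirlet7i and 16.3 to 18.1% for Mirlet7a-1, Mirlet7a-2 and Mirlet7c-2. The median over the 314 detected genes was 8.83%. Below it lay 6 of 10 let-7 genes, near the share of all genes that a median leaves below. All of these but Mirlet7c-1 were genes above 1000 CPM. Levels of different miRNAs also hold differences in adapter ligation and capture, which the spread between pups does not show.

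**Figure D1:**
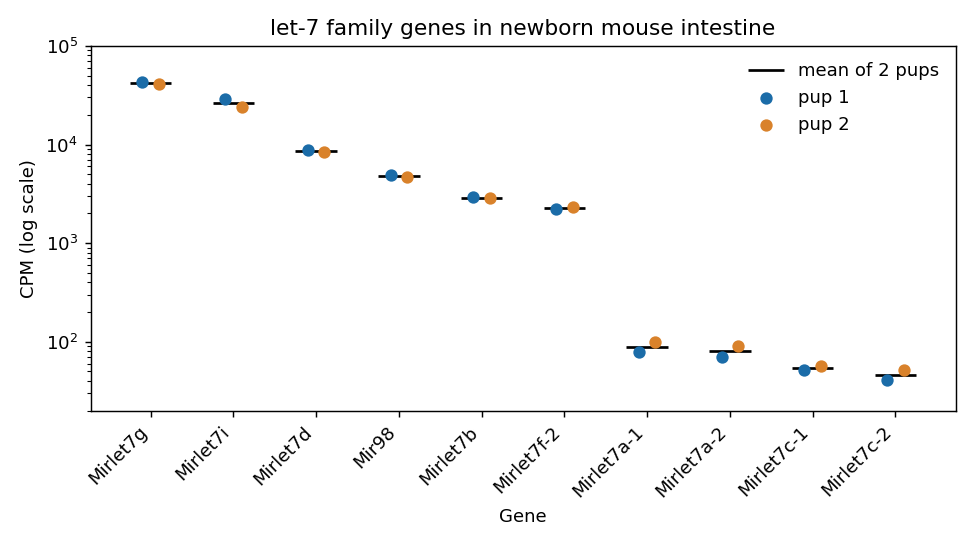
CPM of each let-7 gene (vertical axis, log scale) in pup 1 and pup 2 (points), with the mean of both pups as a bar, in order of mean CPM. There are 6 genes above 1000 CPM and 4 below 100 CPM, and the pups keep the same order.

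The 4 low genes are the ones whose 5p strand has an identical copy that 24 bases are needed to resolve. Below, the 5p strands made by more than 1 gene are printed in lower case, followed in capitals by the next 6 bases of each hairpin, to show where the copies part.
Mirlet7a-1: ugagguaguagguuguauaguuUUAGGG
Mirlet7a-2: ugagguaguagguuguauaguuUAGAGU
Mirlet7c-1: ugagguaguagguuguaugguuUAGAGU
Mirlet7c-2: ugagguaguagguuguaugguuUUGGGC
Mirlet7f-1: ugagguaguagauuguauaguuGUGGGG
Mirlet7f-2: ugagguaguagauuguauaguuUUAGGG
Both let-7a hairpins go on with U, as do both let-7c hairpins, so a read that starts at the annotated 5′ end has to reach 24 bases to match only 1 of them. The let-7f hairpins part at the first base after the mature end, so 23 bases are enough to tell Mirlet7f-2 from Mirlet7f-1. These lengths come from RefSeq hairpins and GENCODE miRNA transcripts of 2238 gene symbols, not from the whole genome. A read with a mismatch or an untemplated base was not considered.

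The 5 genes whose 5p sequence was in no other hairpin, Mirlet7b, Mirlet7d, Mirlet7g, Mirlet7i and Mir98, parted from every other hairpin by 17 bases at most, and each had 2889.2 CPM or more on average. Mirlet7f-2, parted at 23 bases, had 2272.9 CPM, and the 4 genes parted at 24 bases had 46.0 to 88.4 CPM. The counts of Mirlet7a-1, Mirlet7a-2, Mirlet7c-1, Mirlet7c-2 and Mirlet7f-2 leave out reads that mapped to both copies, and can be too low. Reads with a mismatch or an untemplated base could also have been counted for the wrong gene, which was not tested. The place of the let-7a, let-7c and let-7f genes in the order, their distance from the rest of the family, and the family's share are uncertain for these reasons. How many of the multi-mapped reads were let-7 was not tested.

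**Figure D2:**
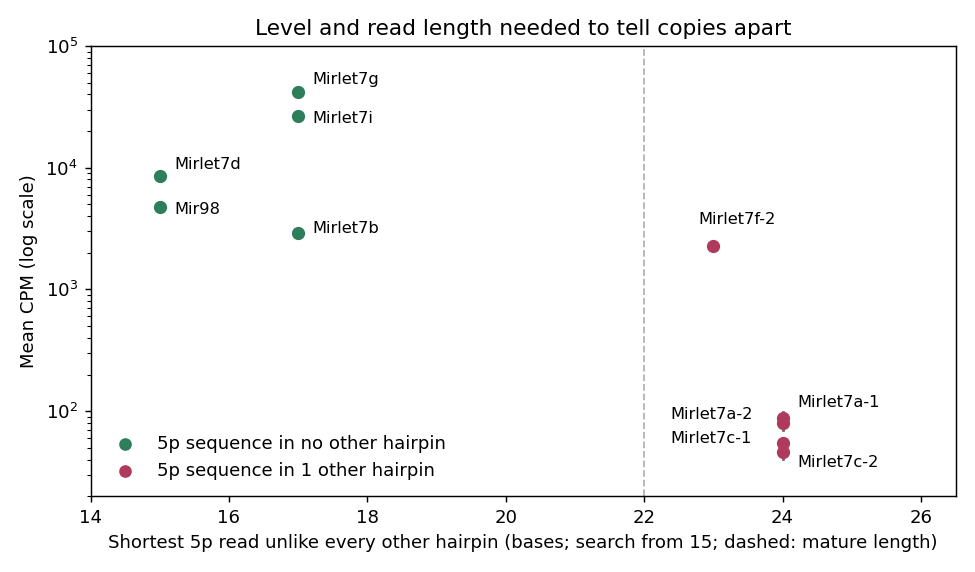
Mean CPM of each let-7 gene (vertical axis, log scale; short lines join the values of the pups) against the shortest 5p read, in bases, that is unlike every other hairpin. Genes with a 5p sequence of their own (green) need at most 17 bases, and the 4 genes that need 24 bases lie below 100 CPM.

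The opposite strand of the hairpin (3p) can carry reads that tell copies apart. It is printed for the let-7a and let-7c genes, whose 5p strands cannot, with bases 2 to 8 in capitals.
Mirlet7a-1 3p: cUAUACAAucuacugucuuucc
Mirlet7c-2 3p: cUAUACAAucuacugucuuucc
Mirlet7a-2 3p: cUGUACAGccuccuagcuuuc
Mirlet7c-1 3p: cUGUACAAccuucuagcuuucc
The 3p strands of Mirlet7a-1 and Mirlet7c-2 are the same sequence, although their 5p strands differ by A19G. Both strands of these genes are thus found in another hairpin, whereas Mirlet7a-2 and Mirlet7c-1 each have a 3p strand of their own. Of the let-7c pair, Mirlet7c-1, with a 3p strand of its own, was the higher in both pups (log2 ratio over Mirlet7c-2 0.36 and 0.14). Of the let-7a pair, Mirlet7a-1, with a shared 3p strand, was the higher in both pups (log2 ratio over Mirlet7a-2 0.16 and 0.13).

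Let-7 genes lie in clusters, and genes of one cluster held very different counts. On GRCm38 chromosome 13, minus strand, Mirlet7d (48536012 to 48536114) and Mirlet7a-1 (48538179 to 48538272) lie 2.07 kb apart, and each overlaps an exon of 6720427I07Rik. Mirlet7f-1, not analysed here, lies between them. Mirlet7d was 111-fold above Mirlet7a-1 in pup 1 and 85.7-fold in pup 2. On chromosome 15, plus strand, Mirlet7c-2 (85706603 to 85706697) and Mirlet7b (85707319 to 85707403) each overlap an exon of the noncoding Lncppara. Mirlet7b was 72.0-fold above Mirlet7c-2 in pup 1 and 55.5-fold in pup 2. On the X chromosome, plus strand, Mirlet7f-2 (151912346 to 151912428) and Mir98 (151913214 to 151913321) lie in an intron of Huwe1, which encodes a ubiquitin ligase. Mir98 was 2.21-fold above Mirlet7f-2 in pup 1 and 2.01-fold in pup 2. In each of these 3 pairs the gene with more counted reads is the one with a 5p sequence of its own. The counts of the other gene leave out multi-mapped reads, as described above, so the order within each pair is not determined.

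Mirlet7g (chromosome 9, plus strand, 106178840 to 106178927) and Mirlet7i (chromosome 10, minus strand, 122985640 to 122985724) have no annotated miRNA gene of their strand within 10 kb. Mirlet7c-1 (chromosome 16, plus strand, 77599657 to 77599750) lies in an intron of Mir99ahg, 657 bases from Mir99a, with Gm11146 on the opposite strand, where 0 reads were counted. Mirlet7a-2 (chromosome 9, plus strand, 41536716 to 41536811) lies in introns of the noncoding genes 3110039I08Rik and Gm49317, 5.21 kb from Mir100. The loci of Mirlet7c-1 and Mirlet7a-2 each pair a let-7 gene with a miR-99 or miR-100 gene and a miR-125 gene. In the chromosome 16 locus, Mir99a had 23125.3 and 21622.2 CPM, and Mir125b-2 had 258 and 251 CPM. In counted reads Mirlet7c-1 was 411-fold below Mir99a and 4.67-fold below Mir125b-2 on average.

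In the chromosome 9 locus, Mir100 had 2767.08 and 2287.6 CPM and Mir125b-1 had 157 and 130 CPM. In counted reads Mirlet7a-2 was 31.7-fold below Mir100 on average, and its log2 ratio to Mir125b-1 was -1.17 in pup 1 and -0.53 in pup 2. Mir99a and Mir100 have 5p sequences found in no other hairpin. Mir125b-1 and Mir125b-2 make the same 5p miRNA, so their counts leave out multi-mapped reads too. Since those of Mirlet7c-1 and Mirlet7a-2 do as well, the order of the genes within each of these loci is not determined. The 6 genes of the miR-99, miR-100 and miR-125 families, with Mir99b (4033.8 ± 337 CPM) and Mir125a (1562 ± 64.9 CPM), took 3.09% ± 0.170 of counts. That was 35.4% ± 0.0679 of what the let-7 genes took in counted reads, nearly the same proportion in each pup. Both sums hold genes whose counts leave out multi-mapped reads, so the proportion between the families is uncertain.

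**Figure D3:**
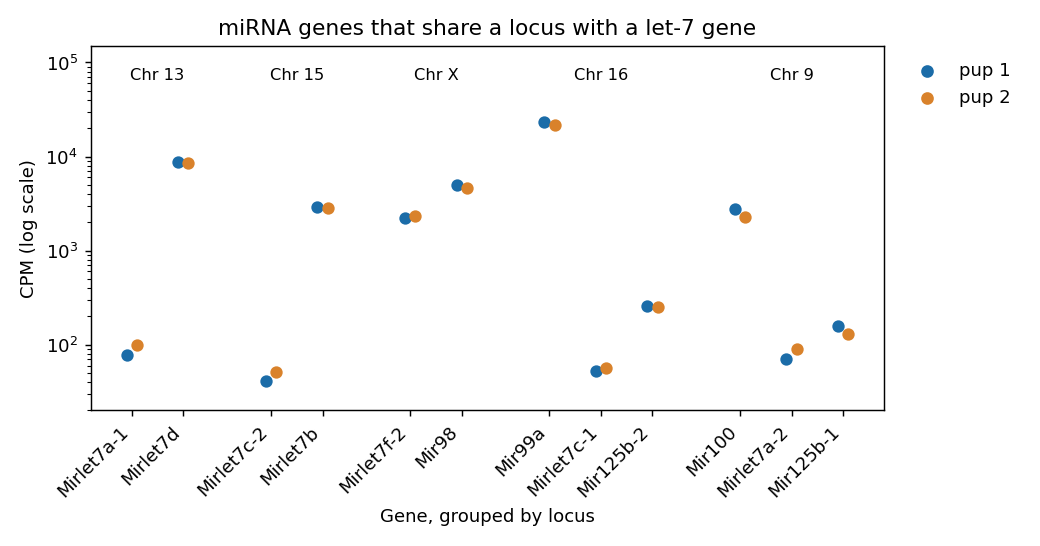
CPM (vertical axis, log scale) in pup 1 and pup 2 of miRNA genes that share a locus with a let-7 gene, grouped by chromosome. Mirlet7a-1, Mirlet7c-2, Mirlet7c-1 and Mirlet7a-2 are each the lowest of the genes plotted for their locus in both pups, and Mirlet7f-2 lies 2.01- to 2.21-fold below Mir98.

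In the RefSeq set, 14 genes had a mature strand with the let-7 seed, the 10 described here and 4 others. Of those, Mirlet7e and Mirlet7f-1 were not analysed here, and Mir7k and Mir1961 had 0 counts in both libraries. At a count of 0, a level of up to 3 counts remains possible, or 0.841 CPM (pup 1) and 0.640 CPM (pup 2). The annotated strands of Mir7k and Mir1961 are shown because they carry the seed without the counts.
Mir7k: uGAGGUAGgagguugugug
Mir1961: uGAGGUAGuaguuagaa
They are shorter than the 22 bases of the let-7 strands, and neither sequence was found in another hairpin.

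Other miRNA genes at the level of the highest let-7 genes were found by the distance of log2(CPM + 1) over the 2 libraries, which leaves 2 points per gene and no more than a likeness in level. Nearest to Mirlet7g were Mir429 (35300.9 ± 173 CPM), Mir21a (34700.0 ± 2018.4 CPM) and Mir126a (52212.7 ± 3424.1 CPM). Nearest to Mirlet7i were Mir26b, Mir192 and Mir200b, from 27146.8 ± 1053.8 to 28893.8 ± 94.0 CPM. Nearest to Mirlet7d were Mir322, Mir23a and Mir10b, from 7971.4 ± 476 to 8956 ± 1062 CPM.

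Between the littermates, let-7 genes differed little, and Mirlet7i had the largest ratio, 1.15-fold, among the 6 genes above 1000 CPM. Differences were tested per gene by a 2-sided exact binomial test on the counts of the libraries, with TMM scaling and Benjamini-Hochberg adjustment over all 314 genes. This compares the 2 libraries and no conditions, and at this depth very small differences pass. Of the 10 let-7 genes, 7 passed at 0.05, where 41.1% of all tested genes did. All 10 had at least 100 counts in each library, and more counts let smaller differences pass. With only the 227 genes of at least 100 counts tested, 55.9% passed, and again 7 let-7 genes. Pup 2 was higher for 4 of the 10 (21.3% of all tested genes) and lower for 3 (19.7% of all). The median log2 ratio, pup 2 over pup 1, was 0.051 over the let-7 genes and 0.0022 over all tested genes. The median size of the ratio, sign aside, was 0.13 over the let-7 genes and 0.18 over all.

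Mirlet7i was lower in pup 2, with a log2 ratio of -0.20 (95% interval -0.21 to -0.19, exact binomial adjusted p = 2.36e-220). The ratio of Mirlet7i was -0.24 with total counts and -0.16 with upper-quartile scaling. Both lie outside that interval, which covers counting error only. Mir98 was lower by a log2 ratio of -0.044 (adjusted p = 0.00851, exact binomial) and Mirlet7g by -0.014 (adjusted p = 0.0121, exact binomial). With upper-quartile scaling Mirlet7g turned to 0.027, called higher (adjusted p = 1.28e-07, exact binomial), and Mir98 no longer passed (adjusted p = 0.935). Mirlet7d had a log2 ratio of -0.0012 and Mirlet7b of 0.0074. Neither passed with TMM, but their sign and call turned on the scaling. Mirlet7d was called lower in pup 2 with total counts (-0.044, exact binomial adjusted p = 0.000202) and higher with upper-quartile scaling (0.040, adjusted p = 0.000717). Mirlet7b was called higher with upper-quartile scaling (0.049, exact binomial adjusted p = 0.0235) and was at -0.035 with total counts, where it did not pass.

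Higher in pup 2 were Mirlet7a-2 with a log2 ratio of 0.41 (95% interval 0.19 to 0.65, exact binomial adjusted p = 0.00101), Mirlet7a-1 with 0.38 (0.16 to 0.60, adjusted p = 0.00186) and Mirlet7c-2 with 0.38 (0.080 to 0.69, adjusted p = 0.0307). Mirlet7c-2 did not pass with total-count scaling (adjusted p = 0.0648) or when every gene with a count was tested (adjusted p = 0.0640). Mirlet7c-1 had 0.17 (-0.11 to 0.44) and did not pass. Mirlet7f-2 had 0.094 (0.052 to 0.14, adjusted p = 4.17e-05). The 4 called higher are all genes whose 5p strand has an identical copy, and 3 of them, Mirlet7a-1, Mirlet7a-2 and Mirlet7c-2, had at most 462 counts in a library. The share of multi-mapped reads was 30.3% in pup 1 and 29.8% in pup 2, and epithelial markers took more and smooth muscle and endothelial markers less of the counts in pup 2 (values above). The largest log2 ratios in size among all tested genes were those of Mir196b (-4.91) and Mir196a-2 (-3.31), both lower in pup 2. The labels name no segment of intestine for either pup. The part of these differences in the let-7 ratios was not tested. No let-7 gene passed when a fold above 1.5 was also asked, against 3.18% of all tested genes.

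**Figure D4:**
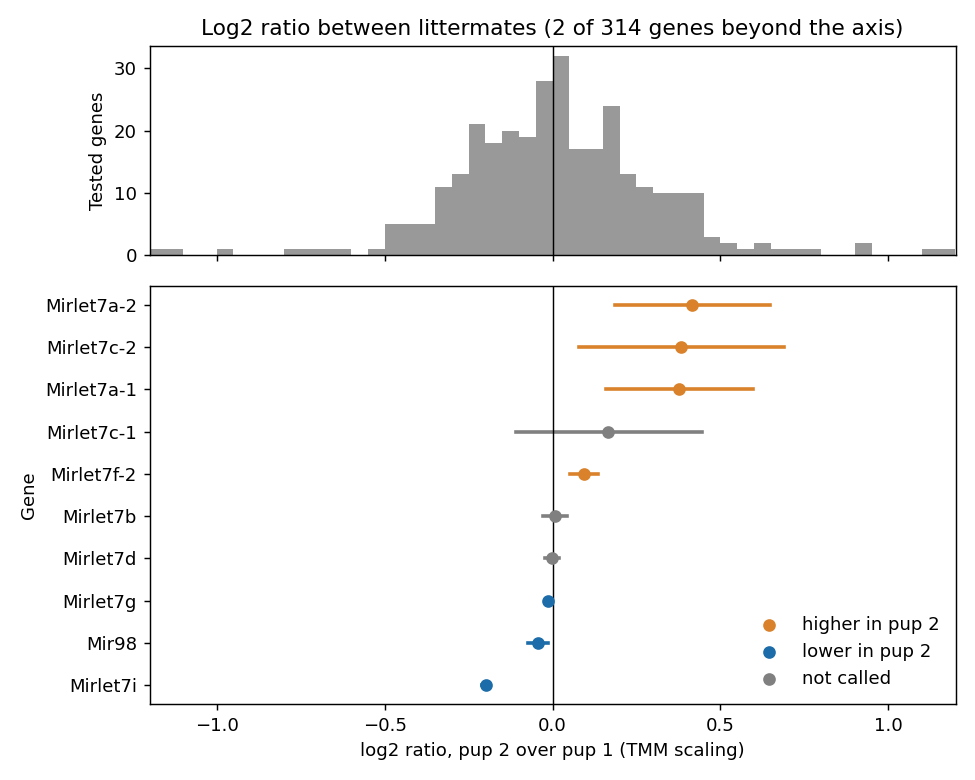
Log2 ratio, pup 2 over pup 1, with TMM scaling. The upper panel counts all tested genes by their ratio (2 of 314 lie beyond the axis), and the lower panel gives each let-7 gene with its exact binomial 95% interval, coloured by the call. The 10 let-7 ratios run from -0.20 for Mirlet7i to 0.41 for Mirlet7a-2, and the largest of them is just below the 90th percentile of all genes' ratios in size (0.44).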

How the data were processed

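MicroRNA sequencing libraries of 2 newborn littermates were used, 1 per pup. The deposited values are raw counts per miRNA gene, made on mm10 with GENCODE M4, per the text deposited with them; the aligner and counter are not given in the sources used here. Of 3 columns of counts, from their sums either strand, annotated strand and opposite strand, the annotated strand was used. Totals of reads in no gene (4 rows: 30.0% ± 0.382 multi-mapped, 9.75% ± 0.562 unmapped, 2.32% ± 0.127 outside miRNA genes, 0 ambiguous) stayed out of library sizes. Symbols, positions and hosts came from GENCODE M21 (GRCm38), which matched 1894 of 1973 identifiers; the other 79 held 0 counts. Mature and hairpin sequences came from RefSeq (GRCm38.p6).

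CPM, TMM (edgeR 4.0.16, on genes with at least 10 counts in each library) and the exact binomial test (scipy 1.17.1) were computed here. The test was also run on simulated counts whose only random spread was counting error. That run cannot show how the test behaves on these libraries, which differ by more. The chi-square over tested genes was 182 per degree of freedom, so the libraries were kept as separate animals. P-values measure the difference between these libraries only. Alternatives were DESeq2 1.42.0 size factors, total-count and upper-quartile scaling, minimums of 1 and 100 counts, a fold of 1.5, ignored strand, other denominators and each pup alone. Genes named were all members, genes within 10 kb or in the miR-99, miR-100 and miR-125 families, genes with the same seed, and the 3 nearest in level to each of the 3 highest members. Mir122, Mir126a and the copies of Mir124a and Mir9 were also named from lists of tissue markers, and Mir196a-2 and Mir196b for the largest ratios between the pups. Members and lists were chosen with earlier results of these data known.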

Additional observations from a re-analysis of the deposited data

Results flagged for a closer look

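Reads on the opposite strand of a let-7 gene were found for Mirlet7b alone, with 2 in pup 1 and 4 in pup 2. The value in pup 2 was flagged because it is above 3 counts, which is a limit for listing and not a test. The other 9 genes had 0 such reads in both libraries. On its annotated strand Mirlet7b had 10434 and 13367 counts. Over all miRNA genes, reads on the opposite strand made up 1.98% of all reads in pup 1 and 1.92% in pup 2.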

How the results depend on the processing

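The let-7 share of 8.73% ± 0.463 was 4.89% with all reads as the denominator, 10.4% without the highest miRNA gene in the denominator and 4.53% without Mirlet7g. With a single pup it ran from 8.41 to 9.06%. The order of the 10 genes by counted reads was the same with strand ignored and in each pup alone. The count of 7 genes called between the pups was 0 when a fold above 1.5 was asked, with 0 higher and 0 lower. With upper-quartile scaling the split of 4 higher and 3 lower was 7 higher and 1 lower, and with total counts it was 3 higher and 4 lower. Signs changed for Mirlet7g (0.027) and Mirlet7d (0.040) with upper-quartile scaling. They changed for Mirlet7b with total counts (-0.035) and with TMM over all genes (-0.0030), an alternative chosen after seeing the data. No paired analysis was possible because the series has 1 group. Genes with few counts, Mirlet7c-1 and Mirlet7c-2 among them, have the widest intervals.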
